A study of Mus musculus with 3 samples.

Results

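Accessible chromatin of mouse islets 1 week and 5 weeks after loss of Taf4 was compared peak by peak. All peaks on chromosomes 1 to 19 of the 1 week list (138129) and of the 5 week list (150230) were taken, 288359 of the 347985 peaks that the 3 lists of the series hold on these chromosomes. The third list, from wild-type islets, was not used in the comparison. Its peaks on the sex chromosomes are given near the end. The comparison asks which accessible regions were present at both times, which were present at 1 time, and how their rank within the list moved between them.

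The series profiled wild-type and Taf4 KO islets by ATAC-seq, with 1 library per group. In the study, Taf4 carried on floxed (lox/lox) alleles was deleted by tamoxifen given to adult mice with an Ins1::Cre-ERT2 transgene, a driver of beta cells, and the study saw Taf4 protein kept in alpha cells. Islet cells in which the driver is not active are in the libraries too. The Taf4+/+ control animals, whose list is not part of the comparison, received tamoxifen and carried the same Cre. Islets from mice of the strain labelled C5LBl6 were dissociated to cells, and the animals behind both lists share the genotype Taf4 KO and differ in the time since tamoxifen, 1 week or 5 weeks. Tamoxifen was given at like age, so that the 5 week animals were older when islets were taken, and the number and sex of the animals behind each ATAC-seq library are not given in the sources used here. Without replicates no p-value was computed, every difference is one between 2 libraries, and the Wilson 95% intervals given for shares cover counting error only. In bulk islet cells, a smaller number of beta cells and less accessibility per cell cannot be told apart.

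TFIID is the general transcription factor that recognises core promoters and helps RNA polymerase II to assemble there, and Taf4 is a structural subunit of it. ATAC-seq reads out open chromatin as places where a transposase can insert adapters. Promoters of widely used genes are open in most cell types, while distal regions such as enhancers are bound by factors of the cell type, in beta cells among others by homeodomain, forkhead and NeuroD-type proteins. CTCF, a zinc-finger protein that anchors chromatin loops and insulators, occupies distal sites that are largely the same from tissue to tissue.

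Each peak carries a -log10 q given by the peak caller, averaged over the peak. Its rank is given here as the percentile within its own list, so that 100 is the strongest peak. Promoter peaks overlapped the window from 1000 bp upstream to 100 bp downstream of a protein-coding transcript start (44018 starts of 21410 genes on mm9), and all others are called distal. A peak was counted as found in the other list from 1 bp of overlap.

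The libraries differed in ways that bear on every result. The lowest -log10 q was 1.01 in both lists, but the background floor recovered from the caller's values was 6.45 reads at 1 week and 9.38 reads at 5 weeks, a ratio of 1.45. The lists also differed along the sex chromosomes, which lie outside the comparison: chromosome X held 12225 peaks at 1 week and 1451 at 5 weeks, and chromosome Y held 0 and 44. Time, depth, animal sex and library preparation cannot be told apart with 1 library per time.

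The distal regions that carry the main contrasts are shown first, 60 bases on a motif match, 5′ to 3′ on the strand given, read from mm9 (NCBIM37). Capitals mark 1 match to the named motif, and other matches are left in lower case. Of the 6 strongest distal peaks found at 5 weeks and not at 1 week that matched a strict form of the CTCF core, 4 are shown.
Intron, nearest start Xrra1 (chr7:107025040-107025099, minus strand): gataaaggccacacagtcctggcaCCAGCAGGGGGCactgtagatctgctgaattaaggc
Upstream of Cnr2 (chr4:135445963-135446022, plus strand): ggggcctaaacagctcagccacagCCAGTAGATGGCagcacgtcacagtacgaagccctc
Intron, nearest start Exog (chr9:119339605-119339664, minus strand): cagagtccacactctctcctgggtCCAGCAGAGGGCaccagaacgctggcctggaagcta
Intron, nearest start Coro7 (chr16:4667345-4667404, minus strand): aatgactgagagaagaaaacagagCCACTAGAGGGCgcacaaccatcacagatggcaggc
Their -log10 q at 5 weeks was 19.1, 17.5, 16.8 and 16.3, which put them at the 95.4, 94.3, 93.7 and 93.3 percentiles of the 5 week list, and no 1 week peak overlapped them. All 4 lie in surroundings with 46.1% to 48.4% GC.

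Shared distal peaks are shown next, 1 with the strict CTCF core and 4 near beta cell genes with a match to an islet factor motif. They were chosen as strong shared peaks, so their high rank in both lists follows from the choice.
Upstream of Stard10, CTCF (chr7:108459280-108459339, plus strand): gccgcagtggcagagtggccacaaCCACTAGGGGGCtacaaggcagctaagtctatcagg
Upstream of Snap25, homeodomain (chr2:136496464-136496523, plus strand): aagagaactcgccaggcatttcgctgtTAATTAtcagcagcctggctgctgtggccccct
Within Abcc8, nearest start Kcnj11, NeuroD-type E-box (chr7:53378593-53378652, minus strand): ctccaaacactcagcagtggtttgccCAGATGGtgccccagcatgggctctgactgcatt
Downstream of the Scg2 start, forkhead (chr1:79397388-79397447, plus strand): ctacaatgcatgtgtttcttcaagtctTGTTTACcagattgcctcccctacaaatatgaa
Intron, nearest start Syt7, forkhead (chr19:10468660-10468719, minus strand): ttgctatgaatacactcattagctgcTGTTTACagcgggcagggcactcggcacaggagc
The Stard10 region had percentiles of 98.1 at 1 week and 99.9 at 5 weeks. The Snap25 region had percentiles of 98.1 at 1 week and 99.2 at 5 weeks, and the Abcc8 region at 99.0 at both times. The Scg2 region was at 98.7 and 98.8, and the Syt7 region at 96.4 and 93.3. Snap25 and Syt7 encode proteins of vesicle fusion, Scg2 a secretory granule protein, and Abcc8 and Kcnj11 the subunits of the ATP-sensitive potassium channel that couples glucose metabolism to insulin release.

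Of the strongest distal peaks found at 1 week and not at 5 weeks, 3 of the first 4 are shown by the 80 bases on their midpoints. The one left out (chr4:59801955-59802271, -log10 q 12.1, local GC 42.4%), in an intron near a gene known by a clone name, ranks second.
Intron, nearest start Nsun6 (chr2:14891093-14891172, plus strand): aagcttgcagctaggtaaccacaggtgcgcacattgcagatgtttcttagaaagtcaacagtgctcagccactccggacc
Upstream of Rnf217 (chr10:31357934-31358013, plus strand): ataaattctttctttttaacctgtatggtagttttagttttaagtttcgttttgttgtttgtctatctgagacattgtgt
Intron, nearest start Csmd3 (chr15:48506037-48506116, plus strand): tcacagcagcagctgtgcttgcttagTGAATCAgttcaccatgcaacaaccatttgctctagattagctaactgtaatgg
Capitals mark a match to the AP-1 motif in the Csmd3 region, and no motif searched was matched in these letters of the others. Their -log10 q at 1 week was 13.6, 11.7 and 11.0, at the 97.2, 95.9 and 95.2 percentiles. These 3 regions lie in surroundings with 36.1% to 39.8% GC, below the 4 regions with a CTCF core above.

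Promoter peaks of 1 week were nearly all found at 5 weeks, and distal peaks much less often. Of the 11828 promoter peaks at 1 week, 96.4% (96.1 to 96.7) were found at 5 weeks, and of the 14350 promoter peaks at 5 weeks, 81.4% (80.7 to 82.0) had been present at 1 week. Of the 126301 distal peaks at 1 week, 52.8% (52.5 to 53.1) were found at 5 weeks, leaving 59600 that were not. Of the 135880 distal peaks at 5 weeks, 48.6% (48.4 to 48.9) were present at 1 week, leaving 69821. The promoter share of the list was 8.56% (8.42 to 8.71) at 1 week and 9.55% (9.40 to 9.70) at 5 weeks, where promoter windows cover 1.38% of the bases. This order turned among peaks whose -log10 q reached 3, with 22.0% at 1 week and 20.7% at 5 weeks.

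Weak distal peaks were found in the other list less often than strong ones. Of distal peaks above the 80 percentile, 96.4% of those at 1 week were found at 5 weeks and 86.6% of those at 5 weeks had been present at 1 week. Of distal peaks up to the 20 percentile these shares were 31.3% and 29.6%. Strength was retained where regions were shared: the percentiles of shared distal regions at both times had a Spearman rho of 0.735 over 66701 peaks, and those of promoters of 11615 genes a rho of 0.703. These are descriptions across regions of the same 2 libraries, which share base composition.

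The distal peaks lost and the distal peaks gained lay in different places. Of the 59600 found at 1 week and not at 5 weeks, 75.3% were intergenic and 25.6% lay within 50 kb of a protein-coding start, with a median distance of 159.9 kb. Of the 69821 found at 5 weeks and not at 1 week, 60.5% were intergenic and 44.4% lay within 50 kb, with a median distance of 64.0 kb. Shared 1 week peaks were 61.7% intergenic with a median distance of 69.4 kb, so the 5 week peaks without a partner resembled shared peaks in position and the 1 week peaks without a partner did not.

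**Figure D1:**
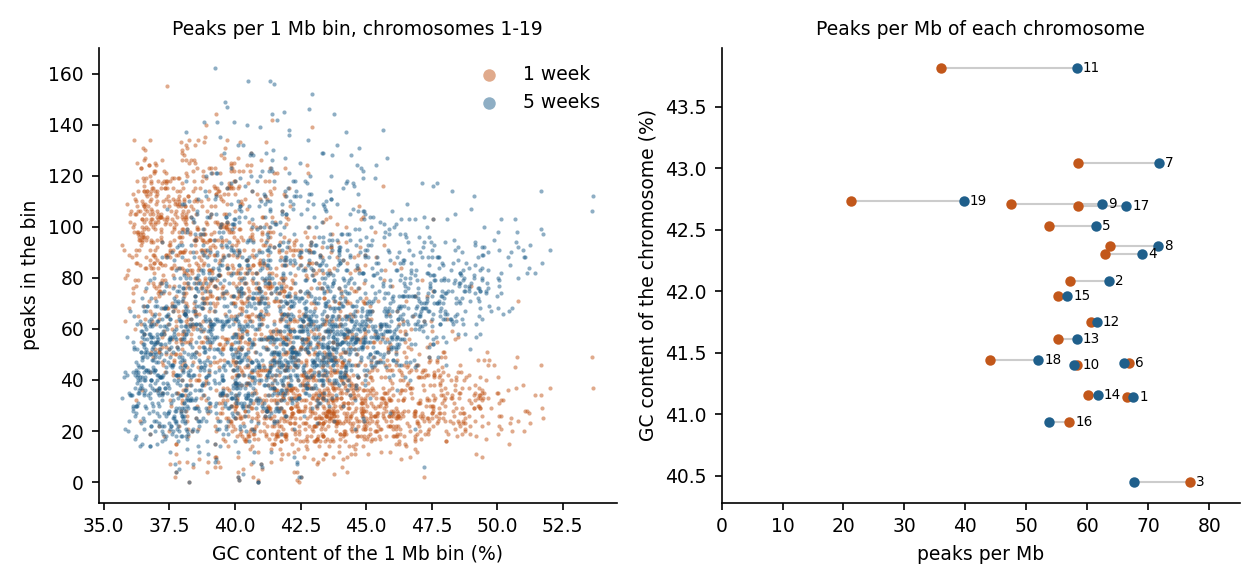
Peaks in each 1 Mb bin of chromosomes 1 to 19 against the GC content of the bin (left, 1 point per bin and list) and peaks per Mb of each chromosome against its GC content (right, chromosome numbers beside the points), 1 week in orange and 5 weeks in blue. The GC-poorest bins hold more peaks at 1 week (mean 86.1 against 48.0) and the GC-richest bins more at 5 weeks (mean 72.8 against 35.5).

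Peak numbers followed the base composition of the chromosome. In the 476 GC-poorest bins of 1 Mb, a bin held on average 86.1 peaks at 1 week and 48.0 at 5 weeks. In the 476 GC-richest bins it held 35.5 and 72.8, and each of these 476 bins had more peaks at 5 weeks. The ratio of 5 week to 1 week peaks was 1.87 on chromosome 19 and 1.62 on chromosome 11, and 0.880 on chromosome 3, as the plot of peaks per Mb of each chromosome shows. Of the 10 bins that lost most peaks, 1 held a cluster of olfactory receptor genes and the others few genes or none, among them the neuronal adhesion genes Slitrk5, Slitrk1, Slitrk3 and Pcdh9. The bin of Slitrk5 on chromosome 14 had 109 peaks at 1 week and 25 at 5 weeks. Bins that gained most included those of the chromatin condensation gene Tnp1, with 35 peaks at 1 week and 129 at 5 weeks, Tgfbr2, encoding a TGF-beta receptor, with 21 and 107, and the chemokine gene Cxcl12, with 36 and 119.

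**Figure D2:**
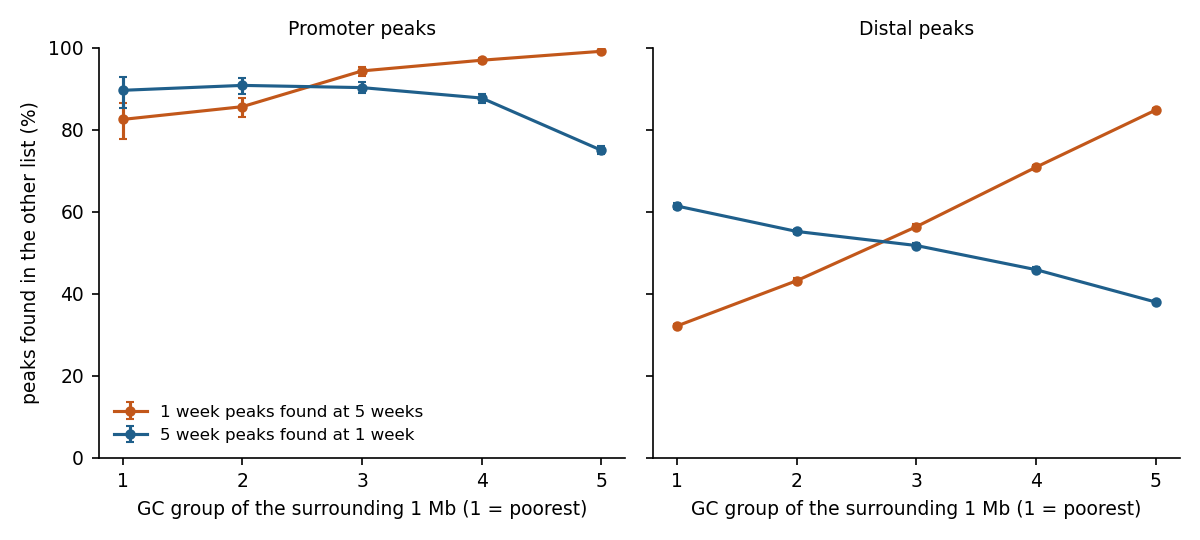
Share of promoter peaks (left) and distal peaks (right) found in the other list, in 5 groups of local GC content (over 1 Mb), with Wilson 95% intervals, in orange for 1 week peaks and blue for 5 week peaks. From the GC-poorest to the GC-richest group the distal share rises from 32.2% to 84.8% for 1 week peaks and falls from 61.4% to 38.0% for 5 week peaks.

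Peaks were split by local GC content (over 1 Mb) into 5 groups, with equal numbers of distal peaks over both lists. Of distal 1 week peaks, 32.2% (31.7 to 32.6) were found at 5 weeks in the GC-poorest group and 84.8% (84.3 to 85.4) in the GC-richest. Of distal 5 week peaks, 61.4% (60.7 to 62.1) had been present at 1 week in the GC-poorest group and 38.0% (37.5 to 38.5) in the GC-richest. Promoter peaks moved the same way over a narrower range, from 82.5% to 99.1% of 1 week peaks and from 89.6% to 74.98% of 5 week peaks. The difference between the GC-richest and GC-poorest groups of 5 week peaks, -23.4 points, was -7.03 among peaks whose -log10 q reached 3, -34.5 where it reached 5 and -6.13 with a reciprocal overlap of 50%. The gradient was also present among strong peaks. Above the 80 percentile, 81.8% of 1 week distal peaks in the GC-poorest group and 99.5% in the GC-richest were found at 5 weeks, while 96.98% and 79.2% of 5 week distal peaks had been present at 1 week. The part of library depth, base composition and sequencing in this gradient was not tested.

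Among the motifs searched, strong 5 week peaks with the strict CTCF core had the lowest share present at 1 week. The open pattern used for CTCF, with 5 free positions, was matched in 2.38% of the 250 bp windows on distal peaks found at 1 week alone, in 5.29% of windows on 1 week peaks shared with 5 weeks, and in 6.90% of windows on peaks found at 5 weeks alone, against 2.59% of windows on a regular grid over the genome. A strict form of the core, chosen after the data were seen, was matched in 0.170%, 1.27% and 2.26%, against 0.136% of the grid. Of the 15175 distal peaks found at 5 weeks alone with a -log10 q of at least 3, 8.87% (8.43 to 9.33) held the strict core, and of the 4359 at 1 week alone 0.895% (0.655 to 1.22).

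Of the strong 5 week distal peaks, above the 80 percentile, 55.2% of the 810 with the strict CTCF core (51.7 to 58.6) had been present at 1 week, against 87.9% (87.4 to 88.3) of the 19310 without it. This gap of -32.7 points shrank to -10.9 when both lists were limited to a -log10 q of 3 or more before ranking, and to -8.09 with a limit of 5. The peaks above the 80 percentile were then fewer and stronger, so these gaps describe different sets of peaks. In the other direction no such gap was seen over all GC groups together: 96.9% (94.6 to 98.2) of the 385 strong 1 week distal peaks with the core were found at 5 weeks, and 96.4% of those without. Peaks with the core had the lower share in the GC-poorest group (71.4% of 7 against 81.8%) and the next (80.5% of 41 against 92.75%). In the middle and GC-richer groups they had the slightly higher share, with nearly all peaks found either way. Weaker 1 week peaks with the core were found at 5 weeks more often than those without. Between the 60 and 80 percentiles of the 1 week list the shares were 89.1% of 384 and 63.9%. Over all 1 week distal peaks they were 89.35% of 948 with the core and 52.5% without. The gap among 5 week peaks also stood between peaks of the same strength. Between the 80 and 85 percentiles 41.8% of 371 peaks with the core and 77.1% without had been present at 1 week, and between the 90 and 95 percentiles 70.3% of 145 and 93.6%. Above the 95 percentile the shares were 96.8% of 62 and 98.8%.

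The CTCF gap was uneven along GC content and was accompanied by a difference in peak length. In the GC-richest group 40.4% (36.3 to 44.8) of 507 strong peaks with the core had been present at 1 week, against 81.4% without, whereas in the middle group the shares were 91.6% (83.6 to 95.9) of 83 and 94.8%. The peaks with the core were shorter, with a median of 342 bp against 637 bp, and a shorter peak overlaps another less easily. Among peaks shorter than 400 bp between the 80 and 90 percentiles, 41.5% (37.0 to 46.2) of 441 with the core and 63.1% (61.4 to 64.9) of 2895 without had been present at 1 week, so the gap was smaller at equal length.

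**Figure D3:**
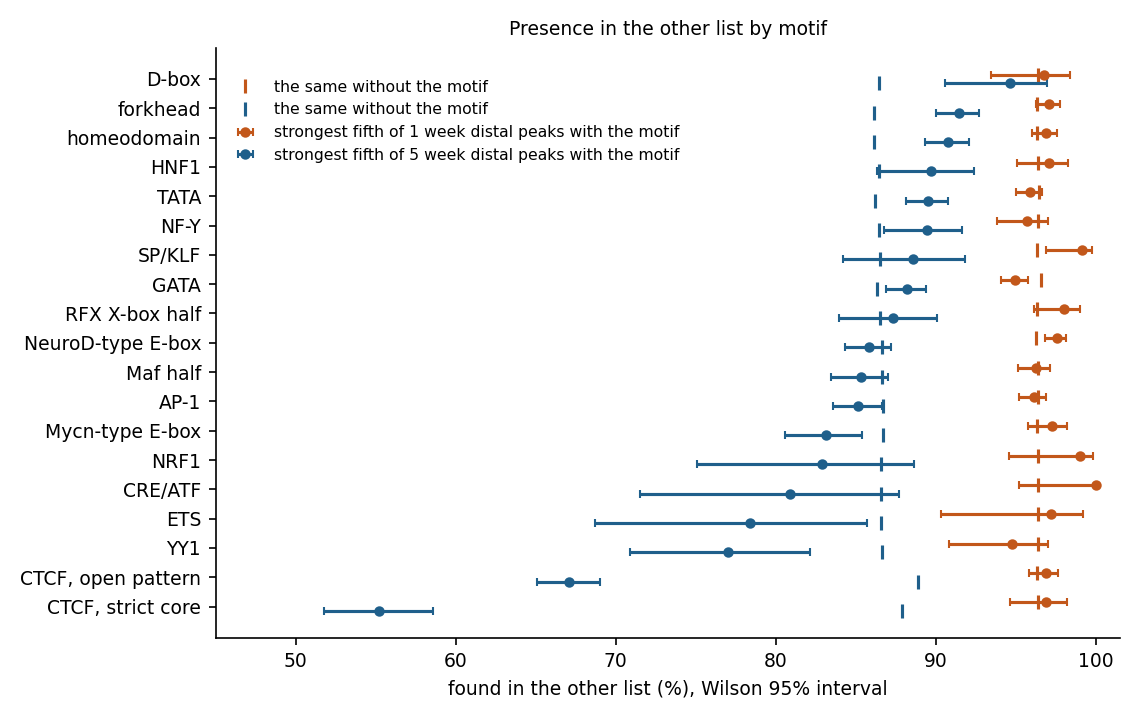
Share of distal peaks above the 80 percentile found in the other list, for peaks with each motif (points with Wilson 95% intervals) and without it (vertical marks), in orange for 1 week peaks and blue for 5 week peaks. The CTCF strict core lies at 55.2% for 5 week peaks, the forkhead motif at 91.4%, and all 1 week points lie at 94.7% or above.

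Strong peaks with any of the other motifs were found at 1 week more often than those with a CTCF core. The searched motifs were short strings on either strand. Of strong 5 week distal peaks with the forkhead motif TGTTTAC, the site of the Foxa and Foxo factors, 91.4% (89.99 to 92.7) of 1636 had been present at 1 week, against 86.1% without it. With the homeodomain motif TAATTA, the kind bound by Pdx1 and Nkx6-1, it was 90.8% (89.3 to 92.1) of 1746 against 86.1%. Peaks with the NeuroD-type E-box CAGATGG were close to those without, at 85.9% (84.4 to 87.2) against 86.6%, and peaks with the AP-1 motif TGANTCA were at 85.2% (83.6 to 86.6) against 86.7%. Motifs not particular to islet factors also had high shares, with the D-box TTATGTAA at 94.6% and TATAAA at 89.5%. The YY1 motif AAGATGGC stood lower, at 77.0% (70.9 to 82.1) of 213 against 86.6%. In the GC-richest group the forkhead share was 87.0% against 78.6% and the homeodomain share 85.8% against 78.7%, and in the GC-poorest group the differences lay within the intervals.

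Over all distal peaks, the forkhead motif was found in 3.87% of windows on peaks of 1 week alone, 6.28% of windows on 1 week peaks shared with 5 weeks and 4.08% of windows on peaks of 5 weeks alone, against 3.78% of grid windows and 2.71% of promoter windows. The NeuroD-type E-box was found in 5.37%, 8.08% and 7.43%, against 5.15% of the grid and 3.74% of promoters. Both motifs were most frequent in shared regions among all distal peaks. Where the -log10 q reached 3, the E-box was at 10.5% in peaks of 5 weeks alone and 10.2% in shared 1 week peaks. Forkhead was then at 5.90% in peaks of 1 week alone, 8.95% in shared 1 week peaks and 5.64% in peaks of 5 weeks alone. The TATA string TATAAA was found in 16.5%, 11.8% and 11.1%, against 23.1% of the grid and 12.4% of promoters. Of the 18 motifs, 11 had a higher share in peaks of 5 weeks alone than in peaks of 1 week alone, and 13 did so when shares were averaged over classes of equal GC content.

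The Taf4 gene itself (Taf4a, ENSMUSG00000039117, chr2:179646851-179711351, minus strand) kept a promoter peak at both times. At 1 week it ran from 179711136 to 179711622 with a -log10 q of 1.32, at the 8.97 percentile. At 5 weeks it ran from 179711237 to 179711968 with a -log10 q of 8.01, at the 81.2 percentile. The gene lies in the GC-richest group of genes, and a promoter peak in islets checks nothing about the deletion in beta cells.

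More genes had an open promoter at 5 weeks. A promoter peak was called at 11992 genes at 1 week and 14254 at 5 weeks, with 11615 genes called at both times, 377 at 1 week alone (1.76% of all genes) and 2639 at 5 weeks alone (12.3%). A call can be lost because the peak edge leaves the window: the peaks of 78 of the 377 and 370 of the 2639 genes overlapped a peak of the other list outside the window. Of genes called at 5 weeks, 10.9% in the GC-poorest group of genes and 33.3% in the GC-richest had no call at 1 week. Of genes called at 1 week, 11.0% and 0.642% had none at 5 weeks.

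The genes called at 1 week alone had weak peaks, with a median -log10 q of 1.83, and CpG-poor promoters, while those called at 5 weeks alone had a median of 4.95. Among promoters with an observed to expected CpG ratio of 0.4 or more, 25 genes were called at 1 week alone and 1426 at 5 weeks alone. Among the CpG-poor promoters the numbers were 352 and 1213.

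At the 11615 genes called at both times the percentile rose by a median of 2.47 points at 5 weeks (order-statistic 95% interval 2.30 to 2.67). The percentile is that of the gene's strongest promoter peak in each list, which need not be the same region at both times. It rose by 25 points or more at 924 genes (7.96%) and fell by as much at 104 (0.895%). The median move ran from -1.06 points in the GC-poorest group of genes to 7.98 in the GC-richest. In shared distal regions the median move was -1.55 (-1.69 to -1.41), from -8.24 in the GC-poorest to 2.81 in the GC-richest group. The distal sign depends on the threshold, and the median move was 2.41 among peaks whose -log10 q reached 3.

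The strongest promoters called at 5 weeks alone lay, with the exception of Kpna7, encoding a nuclear import receptor, in the GC-richest group of genes. Leaving out genes known only by a clone name, of which 1 ranked higher, the first was that of Chrnb1, encoding an acetylcholine receptor subunit, with a -log10 q of 38.9 at 5 weeks, from 69608674 to 69609400 on chromosome 11. A peak shared by Rdbp, a subunit of the elongation factor NELF, and Skiv2l, an RNA helicase, had 33.3, and that of Cpsf1, the largest subunit of the polyadenylation specificity factor, had 31.5. Next came Ap3d1 (29.8), encoding an adaptor of vesicle sorting, H2-DMa (29.0), a chaperone of class II antigen loading, Kpna7 (28.6), Dohh (28.2), an enzyme of hypusine synthesis, Sirt4 (27.6), a mitochondrial sirtuin, and Grin2d (26.9), a glutamate receptor subunit. The peaks at Chrnb1, H2-DMa, Kpna7 and Grin2d overlapped a 1 week peak that lay outside the promoter window, so at these 4 genes the region was not absent at 1 week.

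The strongest promoters called at 1 week alone were weaker, with a -log10 q from 4.12 to 11.9. They included those of Strn, encoding the scaffold striatin (11.9), Kctd16 (7.80), Mia1 (6.62), Ttc6 (6.13), Atp6v0d2, a subunit of the vacuolar proton pump (4.53), Cp, encoding ceruloplasmin (4.49), Baat, an enzyme of bile acid conjugation (4.22), Apbb1ip (4.18) and Atp5f1, a subunit of ATP synthase (4.12). In 7 of the 10 strongest a 5 week peak overlapped the region outside the window, and the exceptions were Mia1, Atp6v0d2 and Cp.

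The largest rises in rank among genes called at both times were those of Gosr2, encoding a Golgi SNARE, from the 4.81 to the 96.1 percentile, Pop7, an RNase P subunit, from 8.70 to 96.4, Zfp414 from 6.14 to 92.4 and Ccdc24 from 6.30 to 91.7. Polr2a, encoding the largest subunit of RNA polymerase II, followed with 8.10 and 92.2, and Tgds, Mtfmt and B3galt6 rose by 82.1, 81.7 and 81.6 points. The largest falls included those of 4 genes with CpG-poor promoters, Serpinb6e, from the 71.8 to the 6.80 percentile, Clca5, from 68.1 to 3.48, the mucin gene Muc15, from 63.8 to 1.39, and Mup6, from 60.8 to 1.39. Lpar3, Fam176a, Ccdc129 and the sodium channel gene Scn2a1 fell by 59.2, 59.2, 55.6 and 55.4 points. At Clca5 and Scn2a1 the peaks ranked at 1 week and at 5 weeks did not overlap, so their falls compare different regions.

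Among distal regions alone at 1 time, the strongest at 5 weeks lay 22.5 kb from the start of H2-M10.4 (chr17:36621527-36621972, -log10 q 60.1, 100 percentile). The next lay 12.7 kb from Akr1c21 (chr13:4560401-4560828, 42.9), upstream of the Notch coactivator gene Maml2 (chr9:13422535-13423208, 29.4) and 8.14 kb from Nr1d1, the clock repressor Rev-erb alpha (chr11:98644427-98645152, 26.7). Of the shared regions, those that rose most lay near Pwwp2b, Cand1, Chka, Eif3c and Park7, by 83.8 to 87.3 points. Those that fell most lay near Slc4a10, Runx1t1, Sh2d4b, Slc10a2 and Sox6, from percentiles of 85.1 to 94.1 at 1 week to 1.39 to 11.5 at 5 weeks.

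**Figure D4:**
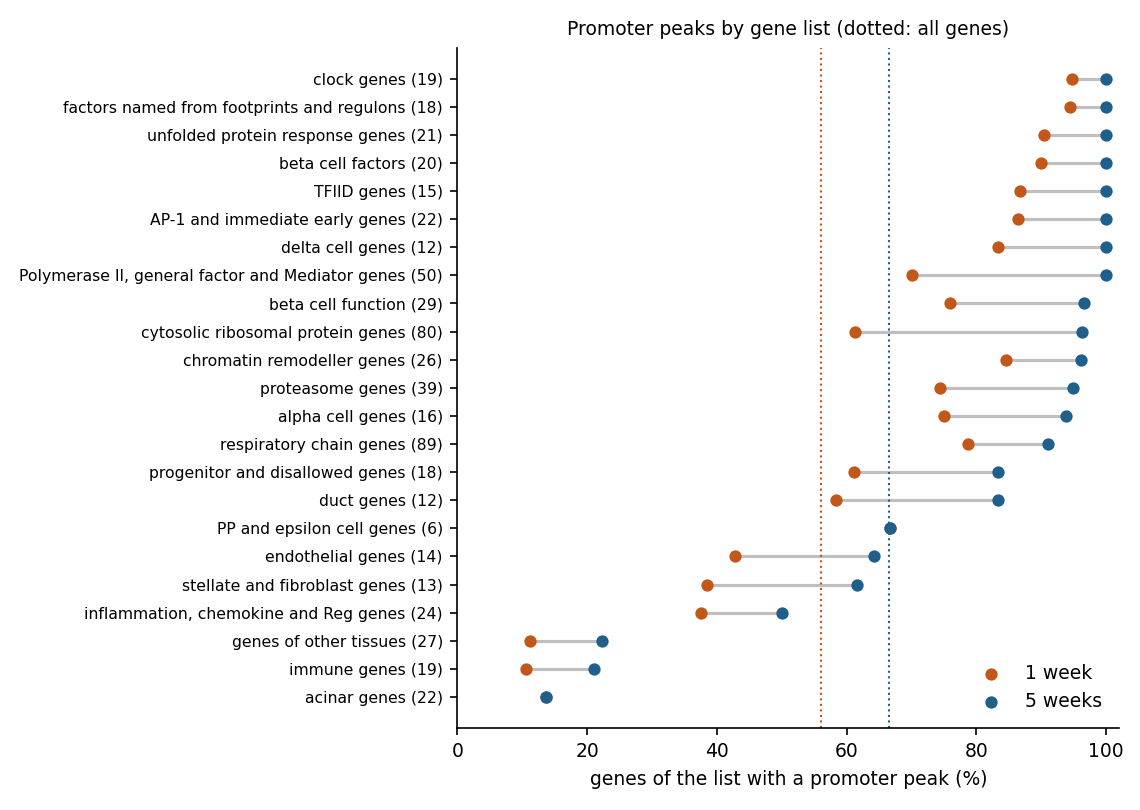
Share of each gene list with a promoter peak at 1 week (orange) and 5 weeks (blue), with the number of genes in parentheses and all protein-coding genes as dotted lines. The cytosolic ribosomal protein genes show a wide gap (49 and 77 of 80 called), and the acinar and the PP and epsilon cell lists show none.

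Polymerase II, ribosomal protein and proteasome genes had a larger share of calls at 5 weeks alone than the 12.3% of all genes, and respiratory chain genes a share near it. Of 50 genes of RNA polymerase II, general factors and Mediator, 35 were called at both times and 15 at 5 weeks alone. Polr2e, Polr2f and Polr2j, all subunits of the polymerase, had a -log10 q of 22.1, 16.3 and 14.5 at 5 weeks, and Gtf2h3, a TFIIH subunit, 14.1. Of 80 cytosolic ribosomal protein genes, 49 were called at both times and 28 at 5 weeks alone, the strongest at Rpl13 (22.6), Rpl11 (21.2), Rpl22 (20.2) and Rpl26 (16.8). Of 39 proteasome genes 8 were called at 5 weeks alone, led by Psmb6 (24.9) and Psmd12 (16.5), and of 89 genes of the respiratory chain 12, led by Uqcr11 (19.8) and Ndufs7 (13.3). The median move of members called at both times was 5.02, 8.95, 5.08 and 5.86 points, against 2.47 over all genes. The median GC content around these genes was 45.1% to 46.8%, and over all genes in the GC group of each list's median gene the median move was 2.48 to 5.14 points.

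As an example of such a promoter, the 100 bases upstream of the Rpl13 start hold the CRE/ATF motif TGACGTCA, found in 1.88% of the 250 bp windows upstream of starts, and those of Abcc8 the SP/KLF motif GGGGCGGGG, found in 13.6% of them. Both are shown because these genes were called at 5 weeks alone, and Chgb as one with no capitals, since none of the motifs was matched in these letters.
Rpl13 (chr8:125626150-125626249, plus strand): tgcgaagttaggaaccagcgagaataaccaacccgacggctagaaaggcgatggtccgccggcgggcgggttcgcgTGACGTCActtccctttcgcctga
Abcc8 (chr7:53435404-53435503, minus strand): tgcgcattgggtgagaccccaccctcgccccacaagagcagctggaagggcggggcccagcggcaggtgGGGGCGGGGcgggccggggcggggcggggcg
Chgb (chr2:132606914-132607013, plus strand): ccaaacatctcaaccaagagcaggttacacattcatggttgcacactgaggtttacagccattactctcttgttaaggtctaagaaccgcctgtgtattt
The surroundings of these 3 promoters had 50.6%, 50.1% and 42.8% GC. Chgb thus had its 5 week call outside the GC-rich groups.

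TFIID, chromatin remodeller and footprint factor genes had shares of calls at 5 weeks alone near or below the 12.3% of all genes. Of 15 TFIID genes, 13 were called at both times and Taf5 (-log10 q 13.0) and Taf9 (7.27) at 5 weeks alone, while Taf6 rose from the 22.6 to the 74.7 percentile. Of 26 chromatin remodeller genes, 22 were called at both times. Smarcd1 (8.36) and Smarce1 (6.28) of the BAF complex and Bptf (6.82) of NuRF were called at 5 weeks alone. The strongest promoter peak of Arid1a ranked 41.5 points higher at 5 weeks, but it did not overlap the one ranked at 1 week. The study had named 18 factors from footprints and regulons, in part from these libraries. Of these, 17 were called at both times and Mafk at 5 weeks alone (9.50), and Mafg rose by 28.3 points. The strongest promoter peak of Tcf12 ranked 39.0 points higher at 5 weeks, but again did not overlap the one ranked at 1 week.

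**Figure D5:**
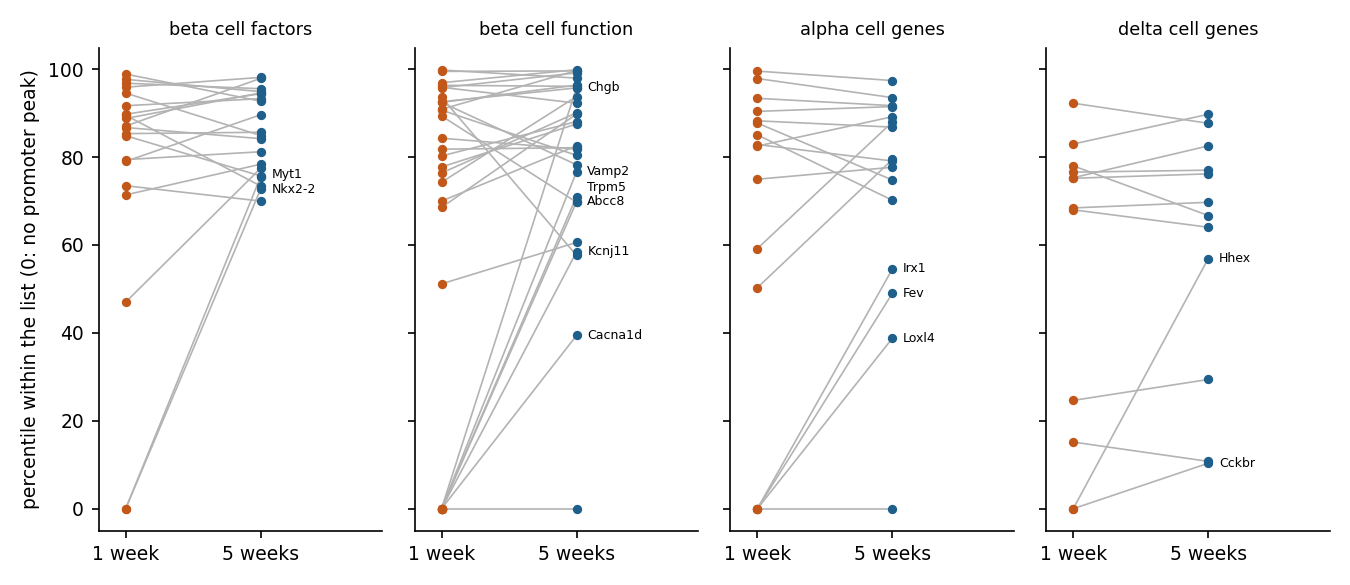
Percentile of the promoter peak within its list at 1 week (orange) and 5 weeks (blue) for genes of beta, alpha and delta cells, with 0 for no promoter peak and a line per gene. Genes whose call differed are named, for example Chgb, which had no peak in the promoter window at 1 week and stood at the 95.8 percentile at 5 weeks.

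Promoters of beta cell transcription factors were open at both times, with 18 of 20 called at 1 week and 20 at 5 weeks. Pax6 had percentiles of 95.9 at 1 week and 98.1 at 5 weeks, Nkx6-1 at 88.8 and 94.6, Mafa, an activator of the insulin genes, at 87.0 and 97.9, and Pdx1, the master factor of the pancreas, at 94.5 and 84.9. Nkx2-2 (-log10 q 5.12, 72.7 percentile) and Myt1 (5.92, 75.5) were called at 5 weeks alone, 2 of 20 genes against 12.3% of all genes. Of the 18 called at both times 10 rose and 8 fell, with a median move of 0.955 points. The largest fall was that of Mnx1, by 16.1 points.

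Genes of beta cell function showed 22 calls at 1 week and 28 at 5 weeks among 29, with 6 at 5 weeks alone. Over all 21410 genes the calls numbered 11992 and 14254, with 12.3% at 5 weeks alone. Ins1 stood at the 96.9 percentile at 1 week and 99.9 at 5 weeks, and Ins2 at 69.98 and 82.5. The 6 genes called at 5 weeks alone were Chgb, encoding the granule protein chromogranin B (-log10 q 19.7, 95.8 percentile), Vamp2, a vesicle SNARE (6.27), Trpm5, a cation channel (4.69), Abcc8 (4.44), Kcnj11 (2.89) and the calcium channel gene Cacna1d (1.963). The Chgb and Kcnj11 peaks overlapped a 1 week peak outside the window. At Ptprn2, encoding a granule membrane protein, the strongest promoter peak was at the 93.6 percentile at 1 week and 57.6 at 5 weeks. These Ptprn2 peaks did not overlap, so the values compare different regions. Glp1r and Ucn3 fell by 19.6 and 14.2 points. Slc2a2, the glucose transporter gene, had no promoter peak in either list.

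Distal 1 week peaks near beta cell genes, and near several other gene lists, had a high share found at 5 weeks. Of the 91 distal 1 week peaks within 50 kb of a start of a beta cell factor, 96.7% were found at 5 weeks, and of the 148 near genes of beta cell function 92.6%, against 65.1% of 43742 distal 1 week peaks within 50 kb of any gene. In the other direction the shares were 52.6% of 156 and 54.8% of 239 5 week peaks, against 47.3%. The 1 week share was as high near clock genes (98.1% of 53), the footprint factors (94.2% of 52), AP-1 and immediate early genes (92.9% of 70) and remodeller genes (90.8% of 65). Near Slc2a2 11 of 12 distal 1 week peaks were found at 5 weeks, and near Tshz1 10 of 10. Peaks near beta cell genes share genes and surroundings, and no test was made of the difference.

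Alpha and delta cell genes also had more promoter calls at 5 weeks, as did genes in general. At 5 weeks alone, 3 of 16 alpha and 2 of 12 delta cell genes were called, against 12.3% of all genes. Of 16 alpha cell genes 12 were called at 1 week and 15 at 5 weeks, with Irx1 (-log10 q 2.61), Fev (2.32) and Loxl4 (1.94) at 5 weeks alone and rises of 28.8 points at Sstr2 and 29.2 at Foxp4. Gcg, the glucagon gene, stood at the 82.8 percentile at 1 week and 79.1 at 5 weeks. Of 12 delta cell genes 10 and 12 were called, with Hhex, the delta cell factor (2.77), and Cckbr (1.32) at 5 weeks alone. Sst, encoding somatostatin, was at the 15.2 and 10.8 percentiles. Of distal 1 week peaks within 50 kb, 73.0% of 63 near alpha cell genes and 59.5% of 79 near delta cell genes were found at 5 weeks. Near any gene this share was 65.1%. In the other direction the alpha and delta shares were 51.9% and 55.6% of 81 peaks each, close to those of the beta cell lists. Near any gene it was 47.3%. Of 6 PP and epsilon cell genes 4 were called at both times, Ghrl, encoding ghrelin, at the 77.97 and 68.1 percentiles.

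Regulators of other states were counted against the 12.3% of all genes called at 5 weeks alone. The progenitor list was above it with 4 of 18, and the inflammation (3 of 24), unfolded protein response (2 of 21), AP-1 (3 of 22) and clock (1 of 19) lists were near or below it. Of 18 genes of endocrine progenitors or genes kept silent in beta cells, 11 and 15 were called, with Igfbp4 (-log10 q 7.39), Aldh1a3 (3.81) and Sox9 (2.84) at 5 weeks alone. Neurog3, the endocrine progenitor factor, rose from the 21.5 to the 70.98 percentile. Of 24 genes of inflammation, chemokines and Reg proteins 9 and 12 were called, with Cxcl16 (2.20) and Reg1 (1.71) among those at 5 weeks alone, and Socs3 rose by 29.9 points. Of 21 genes of the unfolded protein response 19 and 21 were called, with the sensors Ern1 (9.16) and Atf6 (6.54) at 5 weeks alone and Ddit3 rising by 21.4 points. Of 22 AP-1 and immediate early genes 19 and 22 were called, with Egr3 (6.66), Ier2 (5.21) and Fosl1 (3.96) at 5 weeks alone. Of 19 clock genes 18 and 19 were called, with Hlf (5.36) at 5 weeks alone. At the period gene Per1 the strongest promoter peak was at the 83.4 percentile at 1 week and 97.03 at 5 weeks, but these peaks did not overlap.

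Markers of cells outside the endocrine islet, read against the same 12.3%, had 2 of 22 acinar, 4 of 12 duct, 3 of 14 endothelial, 5 of 13 stellate and fibroblast and 3 of 19 immune genes called at 5 weeks alone. Of 22 acinar genes 3 were called at each time, with Rbpjl (-log10 q 7.97) among those at 5 weeks alone and Amy1 (2.27) among those at 1 week alone. Of 12 duct genes 7 and 10 were called, with Krt18 (8.51) and Cldn4 (6.34) at 5 weeks alone. Of 14 endothelial genes 6 and 9 were called, with Egfl7 (3.89) and Cdh5 (2.27) at 5 weeks alone. Of 13 stellate and fibroblast genes 5 and 8 were called, with Des (3.996) and Col1a2 (3.40) at 5 weeks alone, while Dcn fell by 47.8 points. Of 19 immune genes 2 and 4 were called, with H2-Aa (3.04) and Ms4a1 (1.87) among those at 5 weeks alone. Of 27 genes of other tissues, expected to be silent, 3 and 6 were called, with 5 at 5 weeks alone. The part of cell composition in these calls was not tested. Among the genes named from the lists as called at 1 time alone, the peaks of Taf5, Irx1, Hhex, Ern1, Egr3, Ier2, Cldn4 and Amy1 overlapped a peak of the other list outside the window.

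The olfactory and vomeronasal receptor genes, clustered and silent outside sensory neurons, had no steady direction. Of 1081 olfactory receptor genes 133 were called at 1 week and 122 at 5 weeks, 87 at 1 week alone and 76 at 5 weeks alone, with 46 at both times, where all genes had 1.76% and 12.3% called at 1 time alone. Of 318 vomeronasal receptor genes 18 and 12 were called, 12 at 1 week alone. The 5 week minus 1 week difference in olfactory genes called, -11, was -1 where the -log10 q reached 3 and 4 where it reached 5, and that in vomeronasal genes, -6, was -1 and 0. Olfr94 (-log10 q 3.75, with a 5 week peak overlapping outside the window) and Olfr610 (3.46) were called at 1 week alone and Olfr541 (6.47) at 5 weeks alone. The median GC content around olfactory receptor genes was 39.2%. Of 2228 distal 1 week peaks within 50 kb of olfactory receptor genes 43.7% were found at 5 weeks, against 65.1% over all genes.

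The Hox clusters, which order the body axis and are kept closed by Polycomb proteins in most adult cells, held weak peaks at 5 weeks alone. With 10 kb on either side, the Hoxa, Hoxb, Hoxc and Hoxd clusters held 0 peaks each at 1 week and 6, 3, 7 and 11 at 5 weeks. Of 39 Hox genes 13 were called at 5 weeks alone, against 12.3% of all genes, but 3 where the -log10 q reached 3 and 0 where it reached 5. The strongest were Hoxa7 (-log10 q 4.29), Hoxa5 (3.27), Hoxd1 (3.09) and Hoxb9 (2.72). The highest -log10 q of any 5 week peak in a cluster was 5.26, in the Hoxa cluster, and the clusters contain 48.4% to 49.3% GC.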

How the data were processed

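Each library was processed on its own. The authors demultiplexed with bcl2fastq 2.17.1.14, mapped reads to mm9 with Bowtie 1.0.0, keeping unique alignments, and called broad peaks with MACS2 2.1.1. Versions are those of the submitters' processing notes, which name the tools without their roles. A control library, duplicate removal and a shift to the insertion site are not given in the sources used here. The deposited lists give per peak a fold over local background (a ratio), a -log10 p and a -log10 q. The authors' whole-number score derives from the -log10 q and was not used. Depth is not in the lists. A background floor, the 1 percentile of the backgrounds that fold and p jointly fix, stands for it.

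Lists were read with pandas 2.3.3 and numpy 2.4.6 on Python 3.11.15, and promoters were taken from the GENCODE annotation on NCBIM37, the same assembly as mm9. Peak GC groups had cuts at 38.1%, 40.0%, 41.9% and 44.3%. Overlap, calling and background functions were checked on simulated lists. The background check used 1 pileup and 1 background per peak, so it does not cover values averaged over a peak. Alternatives were peaks whose -log10 q reached 3 or 5, lists of equal number or covered length, the 5 week list scaled to the 1 week background, a promoter window of 2500 bp upstream to 500 bp downstream, a reciprocal overlap of 50%, merging, other ranks and 100 bp motif windows. The members, the 26 gene lists and the 18 motifs were chosen with earlier results of these data known. Peaks on X and Y were left out of the comparisons.

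Named genes were Taf4a, the 10 strongest promoters of each time alone, the 8 largest rises and falls, members of the beta, alpha and delta lists that changed call or moved by 25 points or more, and up to 4 of each other list. Other genes were named after their values were seen: Pax6, Nkx6-1, Mafa, Pdx1, Mnx1, Ins1, Ins2, Glp1r, Ucn3, Slc2a2, Gcg, Sst, Tshz1, and the genes near printed sequences. Of distal regions, 5 of each kind were eligible. Some genes that these rules select are not reported here.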

Additional observations from a re-analysis of the deposited data

Results flagged for a closer look

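On the sex chromosomes, outside the comparisons, X peaks at 1 week and Y peaks at 5 weeks stood above the wild-type list. The 1 week list held 12225 peaks on chromosome X, or 75.4 per Mb and 1.31 times its autosomal density, where the wild-type list held 1272 (7.85 per Mb, 0.315 times) and the 5 week list 1451 (8.95 per Mb, 0.143 times). The 5 week list held 44 peaks on chromosome Y, where the wild-type and 1 week lists held 0. Of 932 X-linked genes, 516 had a promoter peak at 1 week and 422 at 5 weeks. The labels do not give the sex of the animals, which cannot be told apart from time.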

How the results depend on the processing

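No paired analysis was possible because each time had 1 library. Of 308 values recomputed under alternatives, 5 changed direction, and many more changed in size. A value counted as moved outside the 95% interval of the main value or, without an interval, on a change of more than 50%. Of the main values (shares, counts and median moves) 51 moved and 41 stayed. Of the other values, which are differences, 72 moved and 139 stayed. The turned order of the promoter shares is not among the 5, as each share was judged on its own. The median move of shared distal regions was 2.41 points among peaks whose -log10 q reached 3 and 6.15 where it reached 5, against -1.55, and the cause was not tested. Where it reached 5 the difference in called olfactory receptor genes was 4 against -11. Where it reached 3 the 5 week minus 1 week difference in motif share was -0.255 for forkhead and -0.382 for Maf. For 1 week distal peaks found at 5 weeks, 1 week promoter peaks found at 5 weeks, 5 week distal peaks found at 1 week and 5 week promoter peaks found at 1 week, in this order, the shares were 75.4%, 98.7%, 51.4% and 74.5% where the -log10 q reached 3. They were 87.6%, 98.7%, 47.6% and 60.2% where it reached 5, and 43.3%, 95.3%, 55.7% and 83.7% with the 5 week list scaled. They were 48.3%, 96.0%, 52.4% and 82.5% with equal covered length, and 31.7%, 74.8%, 29.4% and 62.2% with a reciprocal overlap of 50%. With lists of equal number, 50.5% of distal 1 week, 50.8% of distal 5 week and 82.1% of 5 week promoter peaks were found, and with the wider window 93.1% and 76.9% of 1 week and 5 week promoter peaks. The promoter share of the list was 22.0% at 1 week and 20.7% at 5 weeks where it reached 3, 29.1% and 27.2% where it reached 5, so that the 1 week share was the higher, and 9.85% and 11.0% with the wider window. The 5 week share was 12.5% scaled, 10.9% with equal length and 10.3% with equal number. The median promoter move was 10.2 points at a minimum of 3, 15.3 at a minimum of 5, 0.343 scaled, 1.39 with equal length, 1.86 with equal number, 3.48 ranked among promoters and 1.82 ranked by fold. The distal move was -7.82 scaled, -4.48 with equal length, -3.19 with equal number, -0.623 ranked among distal peaks and -0.907 ranked by fold. Genes called at 1 week alone numbered 113 at a minimum of 3 and 86 at a minimum of 5, where 7200 were called at both times and 4629 at 5 weeks alone, a difference of 4543 in genes called. Merging peaks within 500 bp changed no value. The stricter CTCF core, strength groups and the limit on length were chosen after the data were seen. Depth is known only through the background floor, and peaks under the calling threshold are not in the lists.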
